A study of Mus musculus with 8 samples.

Results

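The 9 genes described here encode receptors of the tumour necrosis factor (TNF) receptor superfamily that T cells carry: Tnfrsf18 (GITR), Tnfrsf4 (OX40), Tnfrsf9 (4-1BB), Tnfrsf1b (TNFR2), Cd27, Tnfrsf14 (HVEM), Tnfrsf25 (DR3), Tnfrsf1a (TNFR1) and Fas. They were taken by gene symbol from a deposited expression table of 24016 genes, and all 9 were among the 12881 genes that passed the filter on low values, at least 1 CPM, or 1 read per 1000000 reads assigned to genes, in at least 2 libraries. The table holds RNA sequencing of spleen CD4+ T cells from a study that, per its title, uses a nuclear transfer model of natural regulatory T (Treg) cells. All the mice were NOD, a strain that develops autoimmune diabetes, and carried a Foxp3-GFP reporter. Foxp3 is the lineage factor of Treg cells. Reporter-positive cells are called Treg and reporter-negative cells non-Treg.

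Monoclonal cells came from NOD.TCRab.FoxP3GFP.Rag-/- mice, in which T cells carry a single receptor and the recombinase needed to build others is missing. The labels mark these cells NT without spelling it out. Polyclonal cells, marked WT, came from NOD.FoxP3GFP mice with a diverse receptor repertoire. Each of the 4 groups (monoclonal Treg, monoclonal non-Treg, polyclonal Treg, polyclonal non-Treg) had 2 libraries, replicates A and B. Receptor, Rag genotype, NT or WT origin and the remaining strain differences cannot be told apart in any comparison between the mice. The labels do not give the ages of the mice or say whether the replicates were separate animals, so p-values measure no more than the spread between libraries, which can be technical.

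As background, TNF receptor superfamily members are membrane proteins that bind trimeric ligands of the TNF superfamily. GITR, OX40, 4-1BB, TNFR2, CD27 and HVEM lack a death domain, recruit TRAF adaptors and feed NF-kB, and act as co-stimulators of T cells. TNFR1, DR3 and Fas carry a cytoplasmic death domain that binds adaptors such as FADD or TRADD. GITR, OX40, 4-1BB and TNFR2 are well known surface receptors of mouse Treg cells.

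Depth ran from 14076330 to 19722321 reads per library, and 3 reads, the most that a count of 0 allows, corresponded to 0.152 to 0.213 CPM (counting error only). Foxp3 lay between 2667 and 2709 CPM in Treg and 319 and 405 CPM in non-Treg cells of monoclonal mice, and between 2281 and 2349 CPM and 81.9 and 84.2 CPM in those of polyclonal mice. It was 1 of 8 Treg identity genes. In Treg cells 0 of the 8 were higher and 4 lower in monoclonal than polyclonal mice (12.1% of all genes each way). In non-Treg cells 1 was higher and 0 were lower (12.1% and 7.35%). Lrrc32, among the 8, measured 17.0 and 15.9 CPM in monoclonal and 235 and 234 CPM in polyclonal Treg cells. In monoclonal mice the 4 CD3 genes summed to 1992 to 2006 CPM in Treg and 1230 to 1470 CPM in non-Treg cells, beside 1587 to 2235 CPM and 1887 to 1928 CPM in polyclonal mice. The summed level of 10 dendritic cell markers was 487 to 565, 1905 to 2132, 46.7 to 59.2 and 67.7 to 72.9 CPM in the same order of groups. That of 9 measured macrophage and monocyte markers was 221 to 338, 530 to 624, 33.1 to 38.8 and 38.1 to 42.7 CPM. That of 9 B cell markers was 50.1 to 70.0, 249 to 308, 28.9 to 46.5 and 46.8 to 69.6 CPM. Cd22 supplied most of the monoclonal non-Treg sum, with 202 CPM (A) and 245 CPM (B). Ms4a1, Cd79a and Pax5 were at most 1.16 CPM there. Cd79b was at 8.26 and 5.93 CPM there, beside 8.03 and 15.5 CPM in polyclonal Treg cells. Of 6 B cell markers tested, 5 were higher in monoclonal than polyclonal non-Treg cells. Whether the sum reflects B cells was not tested. Monoclonal non-Treg libraries thus stood apart in Foxp3, CD3 and these summed marker levels. The summed level of 7 measured neutrophil markers stood apart in monoclonal Treg replicate A (1207 CPM, against 220 CPM in replicate B), was 59.3 to 390 CPM in monoclonal non-Treg and at most 48.2 CPM in polyclonal libraries, and 6 of the 7 were higher in monoclonal than polyclonal Treg cells. These levels move with the comparisons that use those libraries, and their part in the results below was not tested. In bulk RNA, fewer cells of a type and less RNA per cell cannot be told apart.

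In monoclonal mice 6 of the 9 receptors were higher in Treg than in non-Treg cells (Tnfrsf18, Tnfrsf4, Tnfrsf9, Tnfrsf1b, Tnfrsf25 and Cd27), 2 were lower (Tnfrsf14 and Tnfrsf1a), and Fas did not pass the test (limma on log2(CPM + 1), Benjamini-Hochberg adjusted p under 0.05). Of all genes tested, 24.4% passed in that comparison, 10.8% higher and 13.6% lower. In polyclonal mice the same 6 receptors were higher and Tnfrsf14 was lower, while Tnfrsf1a and Fas did not pass. There 7.9% of all genes passed, 4.63% higher and 3.28% lower. Libraries of the groups did not overlap for 6 receptors higher and 2 lower in monoclonal mice (29.5% and 31.6% of all genes) and for 7 higher and 1 lower in polyclonal mice (25% and 22.2%). The median log2 fold change of the 9 receptors was 1.14 in monoclonal and 0.71 in polyclonal mice, beside -0.02 and 0.00 over all genes. The difference between these Treg effects passed the test for 3 receptors, Tnfrsf25, Tnfrsf1b and Tnfrsf1a (1 higher and 2 lower in monoclonal mice), against 9.2% of all genes, 3.64% higher and 5.56% lower.

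**Figure D1:**
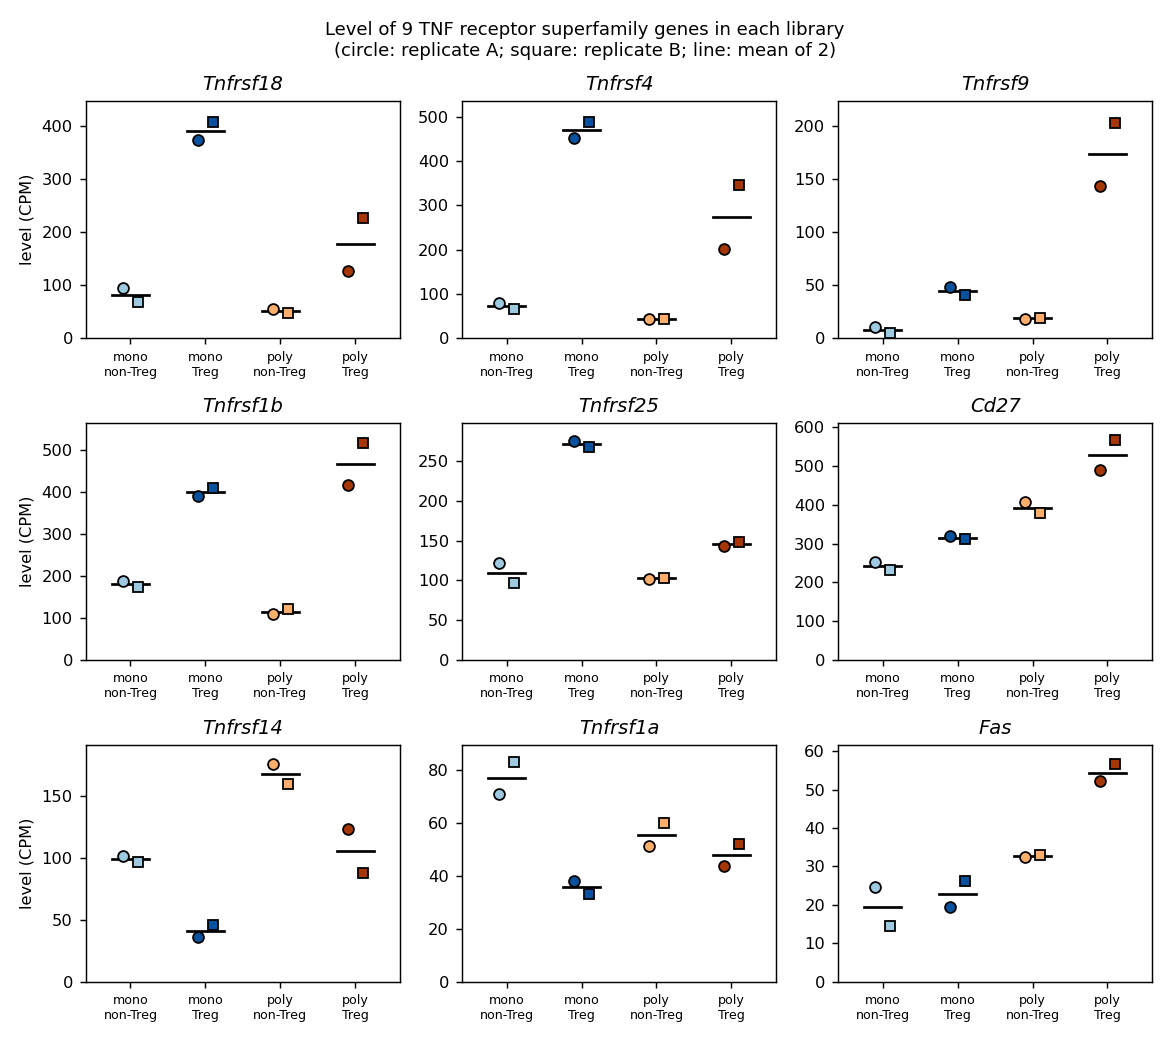
Level in CPM (vertical axis, linear, from 0) of each of the 9 receptors in the 8 libraries, by group, with circles for replicate A, squares for replicate B and a line at the mean of 2. Tnfrsf18 and Tnfrsf4 peak in monoclonal Treg cells at 373 to 488 CPM, Tnfrsf9 in polyclonal Treg cells at 144 to 203 CPM, and Tnfrsf14 in polyclonal non-Treg cells at 159 to 175 CPM.

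Tnfrsf18 encodes GITR, a co-stimulatory receptor that Treg cells carry at rest. It lies on mm9 at chr4:155400451-155403000, plus strand. Monoclonal mice gave Tnfrsf18 levels of 373 and 408 CPM (replicates A and B) in Treg cells and 93.6 and 68.6 CPM in non-Treg cells, and polyclonal mice gave 126 and 226 CPM in Treg cells and 54.0 and 46.5 CPM in non-Treg cells. The groups followed the order monoclonal Treg, polyclonal Treg, monoclonal non-Treg, polyclonal non-Treg without overlap, and polyclonal Treg replicate B stood 0.84 on the log2 scale above replicate A. The Treg effect on the log2(CPM + 1) scale was 2.27 ± 0.22 (SE, adjusted p = 7.21e-06) in monoclonal and 1.74 ± 0.22 (adjusted p = 0.000153) in polyclonal mice. The difference of these effects, 0.53 ± 0.32 (95% interval -0.14 to 1.21), had an adjusted p of 0.334, and it rose to 0.95 with polyclonal Treg replicate B left out (adjusted p = 0.0151).

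Tnfrsf4 encodes OX40, a co-stimulatory receptor that effector T cells gain on activation and mouse Treg cells carry constitutively. It lies upstream of Tnfrsf18 on the same strand, at chr4:155387804-155390698, with 9753 bases between the genes and Gm10560 on the other strand between them. Monoclonal mice gave Tnfrsf4 levels of 452 and 488 CPM (replicates A and B) in Treg cells and 78.9 and 64.9 CPM in non-Treg cells, and polyclonal mice gave 201 and 347 CPM in Treg cells and 44.0 and 43.0 CPM in non-Treg cells. The order of the groups was that of Tnfrsf18, again without overlap. Tnfrsf4 had a Treg effect of 2.70 ± 0.20 (adjusted p = 6.69e-07) in monoclonal and 2.57 ± 0.20 (adjusted p = 1.88e-06) in polyclonal mice, and their difference was 0.12 ± 0.28 (95% interval -0.48 to 0.73, adjusted p = 0.841). In polyclonal Treg cells Tnfrsf4 was 0.78 higher on the log2 scale in replicate B than in A, as Tnfrsf18 was by 0.84, and the summed CD3 genes measured 1587 CPM in replicate A and 2235 CPM in replicate B. Per transcript length the ratio of Tnfrsf18 to Tnfrsf4 was 0.947 and 0.956 in Treg and 1.36 and 1.21 in non-Treg cells of monoclonal mice (replicates A and B), beside 0.719 and 0.749, and 1.41 and 1.24, in those of polyclonal mice. Tnfrsf4 was thus the higher of the pair in every Treg library and the lower in every non-Treg library.

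Sdf4, a gene for a calcium-binding protein of the secretory pathway, ends 85 bases before the start of Tnfrsf4 on the same strand, and was chosen for description after its values were seen. Monoclonal mice gave Sdf4 levels of 530 and 504 CPM (replicates A and B) in Treg cells and 313 and 296 CPM in non-Treg cells, and polyclonal mice gave 318 and 441 CPM in Treg cells and 289 and 261 CPM in non-Treg cells. Its groups of Treg cells lay above the non-Treg cells of the same mice, with a Treg effect of 0.76 ± 0.14 (adjusted p = 0.00152) in monoclonal mice and 0.45 ± 0.14 (adjusted p = 0.0815) in polyclonal mice. Scaled to the CD3 genes, its monoclonal effect was 0.19 (adjusted p = 0.486). The polyclonal effect passed in DESeq2 (0.44, adjusted p = 0.0318) and without polyclonal Treg replicate A (0.68, adjusted p = 0.000994). B3galt6, the next gene upstream, measured 3.68 to 7.05 CPM over the 8 libraries, with Treg effects of 0.17 (adjusted p = 0.803) and -0.26 (adjusted p = 0.834).

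The stretch before the RefSeq start of Tnfrsf4 that is free of exons annotated in GENCODE is shown because Sdf4 ends so close upstream. It covers 84 bases at chr4:156013611-156013694 on the plus strand of GRCm38.p6, a build other than that of the expression table.
Tnfrsf4: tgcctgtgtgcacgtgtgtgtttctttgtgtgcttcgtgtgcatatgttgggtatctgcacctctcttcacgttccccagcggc

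Tnfrsf9 encodes 4-1BB, a co-stimulatory receptor induced on activated T cells and carried by Treg cells. It lies at chr4:150294264-150320211, plus strand. Monoclonal mice gave Tnfrsf9 levels of 48.2 and 40.1 CPM (replicates A and B) in Treg cells and 10.7 and 4.26 CPM in non-Treg cells, and polyclonal mice gave 144 and 203 CPM in Treg cells and 18.4 and 18.8 CPM in non-Treg cells. Unlike GITR and OX40, its highest group was polyclonal Treg, 3.93 times the mean of monoclonal Treg, and within each cell class the polyclonal libraries were above the monoclonal ones. Tnfrsf9 had a Treg effect of 2.52 ± 0.31 (adjusted p = 5.07e-05) in monoclonal and 3.13 ± 0.31 (adjusted p = 1.61e-05) in polyclonal mice, a difference of -0.62 ± 0.44 (95% interval -1.55 to 0.32, adjusted p = 0.434). The 2 monoclonal non-Treg libraries lay apart, with replicate B minus A at -1.15 on the log2 scale. Over the 18 alternatives tried the monoclonal effect on Tnfrsf9 ran from 1.94 to 3.10, and over 17 the difference ran from -1.19 to -0.04. Per transcript length, Tnfrsf9 was 0.0443 to 0.0575 of Tnfrsf4 in monoclonal Treg and 0.316 to 0.385 of it in polyclonal Treg libraries, with 0.0354 to 0.0732 in monoclonal non-Treg and 0.225 to 0.236 in polyclonal non-Treg cells. All 4 polyclonal libraries were above all 4 monoclonal ones in this ratio.

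The 250 bases before the RefSeq start of Tnfrsf9 are printed because this receptor had the largest difference between monoclonal and polyclonal Treg cells of the 9 genes. They lie at chr4:150919905-150920154, plus strand, GRCm38.p6, and hold none of the 4 motifs searched further on.
Tnfrsf9: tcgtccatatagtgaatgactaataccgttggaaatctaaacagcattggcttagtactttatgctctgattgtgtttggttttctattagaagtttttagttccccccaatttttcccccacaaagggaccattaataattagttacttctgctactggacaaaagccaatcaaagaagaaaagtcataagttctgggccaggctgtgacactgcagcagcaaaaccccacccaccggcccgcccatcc

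Tnfrsf1b encodes TNFR2, the TNF receptor without a death domain, and lies at chr4:144802271-144836773, minus strand. Monoclonal mice gave Tnfrsf1b levels of 389 and 408 CPM (replicates A and B) in Treg cells and 188 and 173 CPM in non-Treg cells, and polyclonal mice gave 416 and 517 CPM in Treg cells and 108 and 121 CPM in non-Treg cells. Treg libraries of both mice were well above all non-Treg libraries, and the lowest group was polyclonal non-Treg. For TNFR2 the Treg effect was 1.14 ± 0.13 (adjusted p = 3.37e-05) in monoclonal and 2.01 ± 0.13 (adjusted p = 4.33e-07) in polyclonal mice. The effect was smaller in monoclonal mice by -0.87 ± 0.19 (adjusted p = 0.0104), and this call did not survive leaving out monoclonal non-Treg replicate A (adjusted p = 0.0630) or polyclonal non-Treg replicate A (adjusted p = 0.0776). Between Treg cells of the mice Tnfrsf1b differed by -0.22 ± 0.13 (95% interval -0.50 to 0.07, adjusted p = 0.265; adjusted p = 0.0441 without polyclonal Treg replicate A), and between non-Treg cells by 0.65 ± 0.13 (adjusted p = 0.00256). The latter call was lost without polyclonal non-Treg replicate A (adjusted p = 0.0585).

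Tnfrsf1a encodes TNFR1, the death domain receptor for the same ligands as TNFR2, and lies at chr6:125299741-125312501, plus strand. Monoclonal mice gave Tnfrsf1a levels of 38.2 and 33.1 CPM (replicates A and B) in Treg cells and 71.1 and 82.9 CPM in non-Treg cells, and polyclonal mice gave 43.8 and 52.2 CPM in Treg cells and 51.3 and 59.9 CPM in non-Treg cells. Monoclonal non-Treg was the highest and monoclonal Treg the lowest group, while the polyclonal groups overlapped. TNFR1 had a Treg effect of -1.09 ± 0.18 (adjusted p = 0.000583) in monoclonal and -0.21 ± 0.18 (95% interval -0.60 to 0.18, adjusted p = 0.646) in polyclonal mice. Their difference was -0.88 ± 0.26 (adjusted p = 0.0452), a call lost in 6 of the 8 fits that left out 1 library (adjusted p 0.0719 to 0.229) and kept without monoclonal Treg replicate A and without polyclonal Treg replicate A. Tnfrsf1a was highest in monoclonal non-Treg libraries, which had the highest macrophage and dendritic cell markers, and lowest in monoclonal Treg libraries, which had the next highest (221 to 338 and 487 to 565 CPM). The part of those cells in these values was not tested.

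Within each library the receptors for TNF shifted against each other. Per transcript length, Tnfrsf1b was 4.45 and 5.39 times Tnfrsf1a in monoclonal Treg and 4.15 and 4.33 times in polyclonal Treg replicates A and B. In non-Treg cells the ratio was 1.15 and 0.914 in monoclonal and 0.924 and 0.886 in polyclonal libraries. All 4 Treg libraries were above all 4 non-Treg libraries, and the mice overlapped in non-Treg cells.

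**Figure D2:**
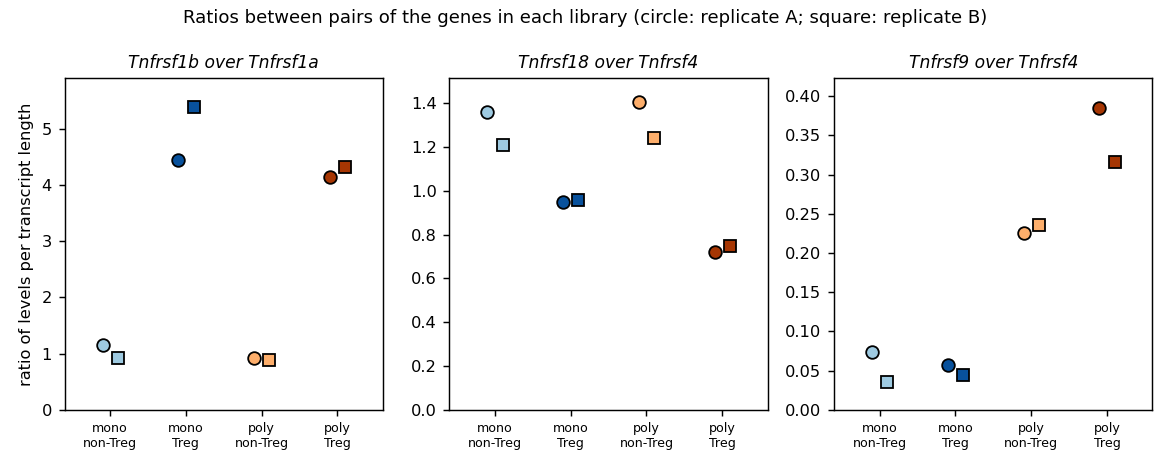
Ratio of levels per transcript length (vertical axes, linear, from 0) in each library for Tnfrsf1b over Tnfrsf1a, Tnfrsf18 over Tnfrsf4 and Tnfrsf9 over Tnfrsf4, with circles for replicate A and squares for replicate B. The first ratio separates Treg libraries (4.15 to 5.39) from non-Treg libraries (0.886 to 1.15), and the last separates polyclonal (0.225 to 0.385) from monoclonal libraries (0.0354 to 0.0732).

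Tnfrsf25 encodes DR3, a death domain receptor for the ligand TL1A that co-stimulates T cells, and lies at chr4:151490452-151494228, plus strand. Monoclonal mice gave Tnfrsf25 levels of 276 and 269 CPM (replicates A and B) in Treg cells and 122 and 96.4 CPM in non-Treg cells, and polyclonal mice gave 144 and 148 CPM in Treg cells and 102 and 104 CPM in non-Treg cells. Monoclonal Treg stood above every other library, and the non-Treg groups overlapped. DR3 had a Treg effect of 1.32 ± 0.14 (adjusted p = 1.15e-05) in monoclonal mice. In polyclonal mice it was 0.50 ± 0.14 (adjusted p = 0.0375), which was lost without polyclonal Treg replicate B (0.0628), polyclonal non-Treg replicate A (0.265) or replicate B (0.250). The effect was larger in monoclonal mice by 0.82 ± 0.19 (adjusted p = 0.0160), and that call failed when monoclonal non-Treg replicate B (0.127), polyclonal non-Treg replicate A (0.0776) or replicate B (0.0904) was left out. Scaled to the CD3 genes, the difference was 0.24 (adjusted p = 0.614).

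Cd27 encodes a co-stimulatory receptor of naive and memory T cells whose ligand is CD70, and lies at chr6:125182640-125187045, minus strand. Monoclonal mice gave Cd27 levels of 320 and 311 CPM (replicates A and B) in Treg cells and 253 and 233 CPM in non-Treg cells, and polyclonal mice gave 491 and 567 CPM in Treg cells and 408 and 378 CPM in non-Treg cells. All polyclonal libraries were above all monoclonal libraries, and within each mouse Treg was above non-Treg without overlap. The Treg effect was small, 0.38 ± 0.12 (adjusted p = 0.0329) in monoclonal and 0.42 ± 0.12 (adjusted p = 0.0422) in polyclonal mice, with a difference of -0.05 ± 0.17 (95% interval -0.41 to 0.31, adjusted p = 0.899). Neither call was stable: the monoclonal one was lost without any 1 library except polyclonal Treg replicate A or B (adjusted p 0.0694 to 0.249) and turned to -0.19 (adjusted p = 0.492) when scaled to the CD3 genes. The polyclonal one was lost without any 1 library except polyclonal Treg replicate A (adjusted p 0.0540 to 0.414). E130112N10Rik overlaps Cd27 on the opposite strand at 11.9 to 31.5 CPM, and the sources used here do not give whether the counting used strand.

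Tnfrsf14 encodes HVEM, which binds the TNF superfamily ligand LIGHT and also the inhibitory receptors BTLA and CD160, and lies at chr4:154296319-154302186, minus strand. Monoclonal mice gave Tnfrsf14 levels of 36 and 45.5 CPM (replicates A and B) in Treg cells and 101 and 96.7 CPM in non-Treg cells, and polyclonal mice gave 123 and 87.3 CPM in Treg cells and 175 and 159 CPM in non-Treg cells. It ran opposite to GITR, lowest in monoclonal Treg and highest in polyclonal non-Treg, with an overlap of polyclonal Treg and monoclonal non-Treg libraries. HVEM had a Treg effect of -1.27 ± 0.18 (adjusted p = 0.000142) in monoclonal mice. In polyclonal mice it was -0.68 ± 0.18 (adjusted p = 0.0275), a call lost without polyclonal Treg replicate B, either polyclonal non-Treg library or either monoclonal non-Treg library (adjusted p 0.0577 to 0.264). The difference, -0.58 ± 0.25 (95% interval -1.12 to -0.05), had an adjusted p of 0.169, and it passed without polyclonal Treg replicate B (-0.83, adjusted p = 0.0224).

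Fas encodes the death receptor for Fas ligand, and lies at chr19:34365149-34402260, plus strand. Monoclonal mice gave Fas levels of 19.5 and 26.3 CPM (replicates A and B) in Treg cells and 24.6 and 14.4 CPM in non-Treg cells, and polyclonal mice gave 52.2 and 56.7 CPM in Treg cells and 32.6 and 33.0 CPM in non-Treg cells. The monoclonal groups overlapped, while polyclonal Treg cells stood above polyclonal non-Treg cells and both stood above the monoclonal libraries. The Treg effect was 0.25 ± 0.25 (95% interval -0.29 to 0.79, adjusted p = 0.523) in monoclonal and 0.71 ± 0.25 (0.17 to 1.26, adjusted p = 0.118) in polyclonal mice. Their difference was -0.46 ± 0.36 (95% interval -1.23 to 0.31, adjusted p = 0.479). A fit of the polyclonal libraries alone gave the polyclonal effect an adjusted p of 0.0385.

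**Figure D3:**
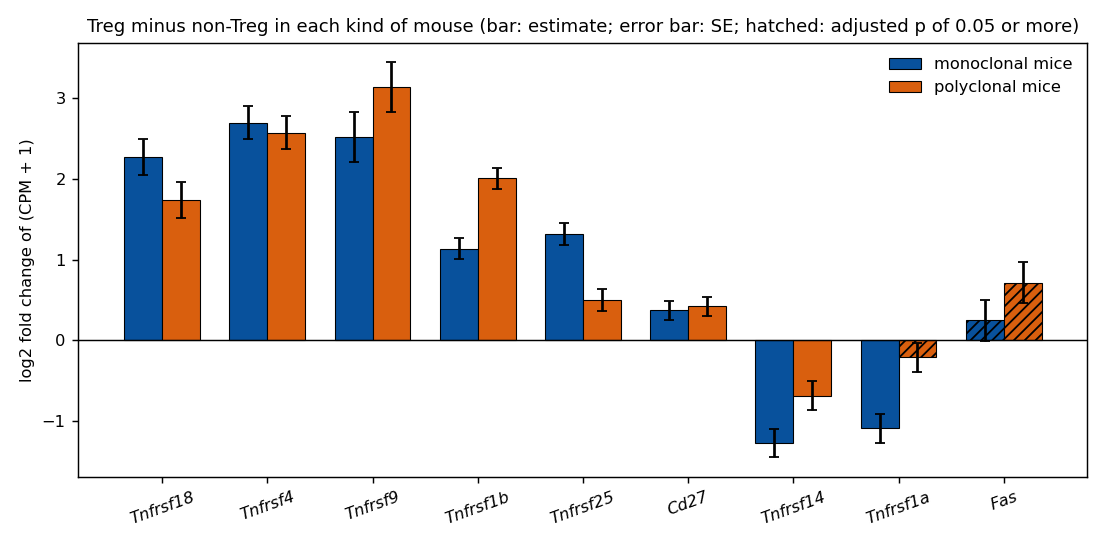
Treg minus non-Treg log2 fold change of (CPM + 1) of each receptor in monoclonal and polyclonal mice, with bars for the estimate, error bars for its SE and hatching where the adjusted p was 0.05 or more. Tnfrsf4 is nearly level between the mice (2.70 and 2.57), Tnfrsf1b is larger in polyclonal mice (2.01 against 1.14) and Tnfrsf25 is larger in monoclonal mice (1.32 against 0.50).

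The 7 monoclonal Treg effects on Tnfrsf18, Tnfrsf4, Tnfrsf9, Tnfrsf1b, Tnfrsf25, Tnfrsf14 and Tnfrsf1a, and the polyclonal effects on the first 4 of these, passed the threshold under all 18 alternatives tried. Scaling every library to its summed CD3 genes put the median of all genes at -0.54 in the monoclonal Treg effect, from -0.02, and Tnfrsf1b then stood at 0.57 in place of 1.14.

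Comparing the mice within a cell class, 7 of the 9 receptors differed in Treg cells, 3 higher and 4 lower in monoclonal cells, and 7 of the 9 differed in non-Treg cells, again 3 higher and 4 lower. Of all genes tested, 24.2% passed in Treg cells (12.1% each way) and 19.4% in non-Treg cells (12.1% higher and 7.35% lower in monoclonal cells). Libraries did not overlap for 3 receptors higher and 6 lower in monoclonal Treg cells (25.4% and 28.8% of all genes), and for 4 higher and 4 lower in monoclonal non-Treg cells (28.7% and 37.8%). The median log2 difference of the receptors was -0.42 in Treg and 0.07 in non-Treg cells, beside -0.03 and -0.07 over all genes. These comparisons use the same libraries as the Treg effects, so their values are set side by side and not counted as further evidence.

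GITR and OX40 were higher in monoclonal cells. In Treg cells Tnfrsf18 was higher by 1.20 ± 0.22 (adjusted p = 0.00130) and Tnfrsf4 by 0.83 ± 0.20 (adjusted p = 0.00778), the latter lost without monoclonal Treg replicate B (0.0587) or polyclonal Treg replicate A (0.0516). In non-Treg cells Tnfrsf18 was higher by 0.67 ± 0.22 (adjusted p = 0.0498), lost without any 1 library except polyclonal Treg replicate A or B (0.0630 to 0.374). Tnfrsf4 was higher there by 0.71 ± 0.20 (adjusted p = 0.0218), lost without any 1 of the 4 non-Treg libraries (0.0583 to 0.198). Both of these non-Treg differences stand beside the higher Foxp3 of monoclonal non-Treg cells, 319 to 405 CPM against 81.9 to 84.2 CPM, whose part in them was not tested. The Treg identity genes did not differ as a list between the non-Treg cells: of the 8, 1 was higher, 0 were lower and 7 did not pass (median 0.07). Tnfrsf25 was higher by 0.89 ± 0.14 (adjusted p = 0.000282) in monoclonal Treg cells, and in non-Treg cells it differed by 0.07 ± 0.14 (95% interval -0.22 to 0.36, adjusted p = 0.789).

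4-1BB, CD27, HVEM and Fas were lower in monoclonal cells of both classes, although for Fas in non-Treg cells the call was lost under 9 of 18 alternatives. In Treg cells Tnfrsf9 fell by 1.93 ± 0.31 (adjusted p = 0.000400), Tnfrsf14 by 1.33 ± 0.18 (7.76e-05), Fas by 1.23 ± 0.25 (0.00277) and Cd27 by 0.74 ± 0.12 (0.000415) relative to polyclonal cells, and these 4 calls held under all 18 alternatives. In non-Treg cells the differences were -1.32 ± 0.31 for Tnfrsf9 (adjusted p = 0.00667), -0.75 ± 0.18 for Tnfrsf14 (0.00686), -0.77 ± 0.25 for Fas (0.0473) and -0.69 ± 0.12 for Cd27 (0.000619). Without monoclonal non-Treg replicate B the adjusted p became 0.116 for Tnfrsf9, 0.0781 for Tnfrsf14 and 0.467 for Fas. Without polyclonal non-Treg replicate A it became 0.0935 for Tnfrsf14 and 0.204 for Fas, and without replicate B 0.218 for Fas. With CD3 scaling, where the median over all genes became 0.40 in place of -0.07, Tnfrsf14 stood at -0.25 (0.543), Fas at -0.28 (0.474) and Cd27 at -0.19 (0.563). Fas also did not pass with TMM scaling (0.0698), in edgeR (0.108), in DESeq2 (0.103) or without a filter (0.102). Tnfrsf1a differed by -0.42 ± 0.18 in Treg cells (adjusted p = 0.111) and by 0.46 ± 0.18 in non-Treg cells (adjusted p = 0.0921), the latter 0.96 (0.00679) when scaled to the CD3 genes.

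**Figure D4:**
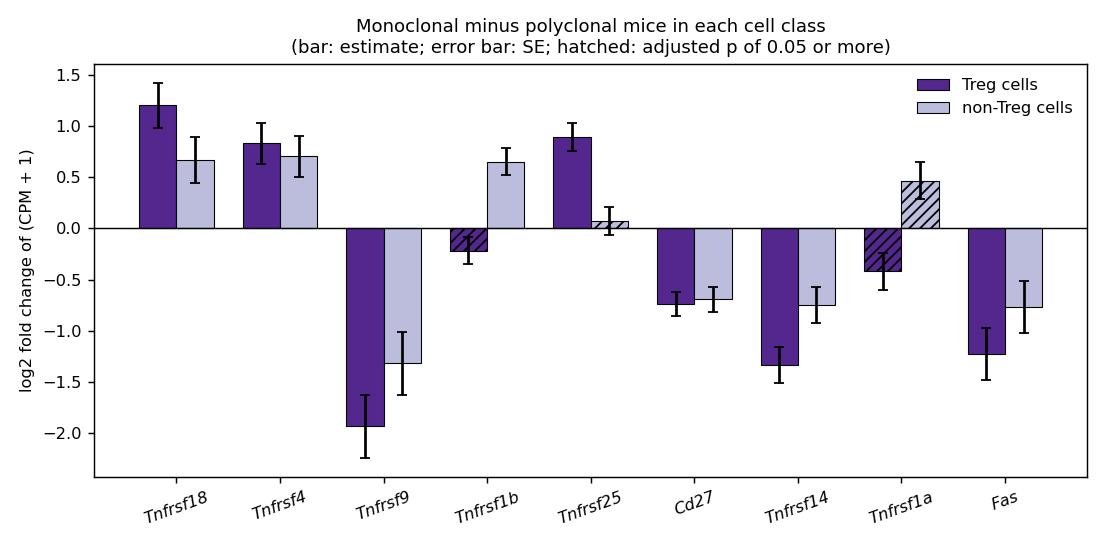
Monoclonal minus polyclonal log2 fold change of (CPM + 1) of each receptor in Treg and in non-Treg cells, with bars for the estimate, error bars for its SE and hatching where the adjusted p was 0.05 or more. Tnfrsf9, Cd27, Tnfrsf14 and Fas lie below 0 in both cell classes, and Tnfrsf18 and Tnfrsf4 lie above 0 in both. The estimates for Tnfrsf1b and Tnfrsf1a have opposite signs in the classes, but among them only Tnfrsf1b in non-Treg cells passed.

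Levels were also set against each other per kilobase of the transcript, as CPM per kb. The 9 receptors summed to 1317 and 1387 CPM per kb in Treg cells of monoclonal mice and to 1052 and 1345 in those of polyclonal mice (replicates A and B), against 607 and 529, and 692 and 654, in their non-Treg cells. The summed level was higher in every Treg library than in every non-Treg library. Tnfrsf4 and Tnfrsf18 led in monoclonal Treg cells with 29.9 to 30.7% and 28.3 to 29.4% of that sum. In polyclonal Treg cells Cd27 had 26.9 to 29.8%, above Tnfrsf4 with 16.7 to 22.5% and Tnfrsf18 with 12.0 to 16.8%. In polyclonal non-Treg cells Cd27 had 36.9 to 37.6% and Tnfrsf14 had 27.6 to 28.7%, while Tnfrsf4 had 5.55 to 5.73%. In monoclonal non-Treg cells Cd27 had 26.6 to 28.1% and Tnfrsf14 had 18.8 to 20.7%. Tnfrsf9 was at most 7.11% of the sum, reached in polyclonal Treg replicate B.

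**Figure D5:**
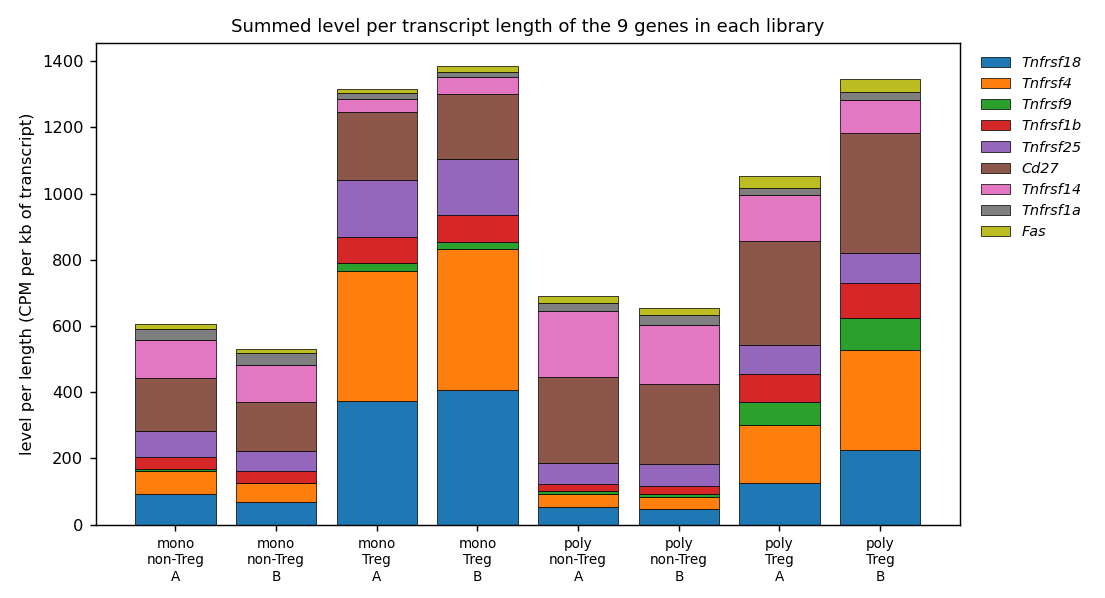
Stacked level per transcript length (vertical axis, CPM per kb, from 0) of the 9 receptors in each of the 8 libraries, with a colour for each gene. Treg bars reach 1052 to 1387 CPM per kb and non-Treg bars 529 to 692, and the Tnfrsf14 and Cd27 segments make up most of the polyclonal non-Treg bars.

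The genes share position and some promoter letters. On mm9, 6 of the 9 genes lie on chromosome 4 within 10.6 Mb, and Cd27 and Tnfrsf1a lie on chromosome 6 with Ltbr, a further receptor of the family, between them. In RefSeq promoter sequences of GRCm38.p6, matched for all 9 genes by symbol, 4 motifs were searched on both strands in the 250 bases before each start. The STAT letters TTCNNNGAA, which read the same on both strands, occurred in 5 of the 9 genes and in 7.02% of 32851 promoter windows of this length. Exons were not masked in either count. For Tnfrsf18 and Tnfrsf1a the match lay outside the longest stretch of these bases free of GENCODE exons. That stretch covered bases 250 to 159 and 214 to 1 before the start, and the matches stood at 99 and 244. The AP-1 letters TGANTCA occurred in 1 of 9 (Fas) and 6.75% of windows, the forkhead letters GTAAACA in 0 of 9 and 3.17%, and an NF-kB motif in 1 of 9 (Tnfrsf25) and 5.0%. The motifs were chosen with the expression values known, overlap between motifs was not removed, and a match describes letters and not a bound site. STAT letters are the ones shown because the receptors with them include some that were higher (Tnfrsf18, Tnfrsf1b, Tnfrsf25) and one that was lower (Tnfrsf1a) in monoclonal Treg cells, and Fas, which did not pass. The receptors without them likewise went both ways there, higher for Tnfrsf4, Tnfrsf9 and Cd27 and lower for Tnfrsf14, so the letters did not separate the directions.

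The windows with STAT letters follow, with the match in capitals, 5′ to 3′ along the gene's strand. They lie at chr4:156026213-156026241 (plus), chr6:125349473-125349497 (plus), chr4:145247033-145247061 (minus), chr4:152116317-152116345 (plus) and chr19:34290556-34290584 (plus) of GRCm38.p6, with the match 99, 244, 181, 16 and 93 bases before the start, in the order printed.
Tnfrsf18: tgctctacacTTCACAGAAggcctttaca
Tnfrsf1a: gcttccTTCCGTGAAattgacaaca
Tnfrsf1b: agcgcattcaTTCCCGGAAgagatgctgg
Tnfrsf25: gggcctccacTTCTCAGAAggcatggctg
Fas: tcaaagcgatTTCTGGGAAgacctgaata

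Tnfrsf1b is also shown over the full 250 bases, at chr4:145246871-145247120 on the minus strand, because its Treg effect was among the calls that held in both mice and differed between them.
Tnfrsf1b: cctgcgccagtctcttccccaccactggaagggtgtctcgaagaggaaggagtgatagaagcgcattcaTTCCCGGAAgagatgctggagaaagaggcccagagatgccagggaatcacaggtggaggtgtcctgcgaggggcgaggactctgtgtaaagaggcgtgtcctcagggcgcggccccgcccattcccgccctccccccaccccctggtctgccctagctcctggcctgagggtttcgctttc

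For likeness of pattern, the Pearson correlation of log2(CPM + 1) over the 8 libraries was used, which share their groups and depths and are no independent points. The genes most like Tnfrsf18 were Socs1 (0.992), Rarg (0.992) and Pianp (0.987), and those most like Tnfrsf4 were Rhoh (0.995), Sp6 (0.994) and Cish (0.989). For Tnfrsf9 they were Il2rb (0.987), Nol10 (0.984) and Kcnf1 (0.977), for Tnfrsf1b Lrrc61 (0.996), Myo1e (0.986) and Foxp3 (0.982), and for Tnfrsf25 Osbpl3 (0.992), Vps54 (0.990) and Gata3 (0.989). For Tnfrsf14 they were Usp7 (0.996), Znrf1 (0.992) and Inpp5b (0.992), for Cd27 Zhx2 (0.990), Nrn1 (0.989) and Cd6 (0.984), for Tnfrsf1a Gaa (0.979), Acsf2 (0.979) and Ptpn6 (0.967), and for Fas Ldlrad4 (0.980), Arhgef3 (0.977) and Aldh18a1 (0.971). Among the receptors themselves Tnfrsf18 and Tnfrsf4 were the most alike pair (0.981), and Tnfrsf14 ran opposite to Tnfrsf18 (-0.909). With libraries scaled to the CD3 genes, the 3 names were unchanged for Tnfrsf4, all replaced for Tnfrsf18 and Tnfrsf25, and 1 of 3 was kept for each of the other 6 receptors. With TMM scaling Tnfrsf14 kept 1 of 3, Tnfrsf18 and Fas kept 2, and the other 6 kept all 3.

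Of 12 ligands and binding partners of the receptors, 10 were tested. Over all genes tested, 10.8% were higher and 13.6% lower in the monoclonal Treg effect, and 4.63% and 3.28% in the polyclonal one. Between the mice these shares were 12.1% each way in Treg cells, and 12.1% and 7.35% in non-Treg cells. They stand beside the counts of this list and of those that follow. Tnfsf18, the GITR ligand, had 0 reads in all 8 libraries, and Cd70, the CD27 ligand, had at most 5 reads. Tnfsf4, the OX40 ligand, reached 1.44 CPM at most, and Tnfsf9, the 4-1BB ligand, ranged from 2.0 to 10.2 CPM. In each Treg effect 1 of the 10 was higher and 2 were lower, with a median of -0.48 in monoclonal and 0.08 in polyclonal mice. In monoclonal mice the HVEM partners Btla and Cd160 were lower in Treg cells, Btla by -1.19 ± 0.17 (adjusted p = 0.000144) and Cd160 by -2.11 ± 0.42 (adjusted p = 0.00240). Monoclonal mice gave Btla levels of 87.7 and 62.9 CPM (replicates A and B) in Treg cells and 178 and 164 CPM in non-Treg cells, and polyclonal mice gave 226 and 174 CPM in Treg cells and 248 and 251 CPM in non-Treg cells. In polyclonal mice Lta, a ligand of TNFR1 and TNFR2, was higher in Treg cells by 1.54 ± 0.24 (adjusted p = 0.000862). Lta measured 107 and 125 CPM in polyclonal Treg and 39.7 and 38.5 CPM in polyclonal non-Treg libraries, against 14.7 to 26.3 CPM in the 4 monoclonal libraries. The Treg effect on Lta was lower in monoclonal mice by -1.70 ± 0.35 (adjusted p = 0.00686).

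Between the mice, 6 of these 10 genes were lower in monoclonal Treg cells and 4 were lower in monoclonal non-Treg cells, and none was higher in either (median -1.29 and -0.58). Lta was lower by -2.50 ± 0.24 (adjusted p = 4.41e-06) in Treg cells. Fasl, the ligand of Fas, measured 3.72 and 1.29 CPM in monoclonal non-Treg and 17.7 and 19.1 CPM in polyclonal non-Treg libraries, a difference of -2.56 ± 0.43 (adjusted p = 0.000472). The groups did not overlap. Fas itself was lower in the same cells, a call lost under 9 of 18 alternatives.

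Of 20 other genes listed with the receptor superfamily, 15 were tested. In the Treg effect 1 was higher and 4 lower in monoclonal mice (median -0.09), and 1 was higher and 1 lower in polyclonal mice (median 0.05). Between the mice 4 were higher and 1 lower in monoclonal Treg cells, and 5 were higher and 1 lower in monoclonal non-Treg cells. Those higher included Ltbr, the lymphotoxin beta receptor, by 3.93 ± 0.42 in non-Treg cells (adjusted p = 7.74e-06), Tnfrsf11a, which encodes RANK, by 3.85 ± 0.41 (6.34e-06), and Cd40 by 4.21 ± 0.43 (4.11e-06). Cd40 measured 27.1 and 30.9 CPM in monoclonal non-Treg and 0.253 and 1.10 CPM in polyclonal non-Treg libraries. Dendritic cells carry CD40 and RANK, and in the same libraries the dendritic cell marker Itgax measured 961 and 1234 CPM in monoclonal non-Treg and 10.4 and 10.9 CPM in polyclonal non-Treg cells, with 9 of the 10 dendritic cell markers higher. The part of such cells in these values was not tested.

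Of 15 genes for TRAF adaptors and the noncanonical NF-kB arm, 2 were higher and 3 lower in the monoclonal Treg effect (median -0.21), and 5 were higher and 1 lower in the polyclonal one (median 0.29). Tnfaip3, which encodes A20, a brake on signalling from TNF receptors to NF-kB, was the most abundant of them. Monoclonal mice gave Tnfaip3 levels of 1535 and 1662 CPM (replicates A and B) in Treg cells and 415 and 390 CPM in non-Treg cells, and polyclonal mice gave 255 and 240 CPM in Treg cells and 187 and 129 CPM in non-Treg cells. Monoclonal Treg cells stood far above the rest, 2.69 ± 0.15 over polyclonal Treg cells (adjusted p = 2.44e-08) and 1.99 ± 0.15 over monoclonal non-Treg cells (adjusted p = 8.57e-07). Nfkb2, the precursor at the centre of the noncanonical arm, was higher in polyclonal Treg than non-Treg cells by 0.96 ± 0.14 (adjusted p = 0.000406). Relb, its partner, was lower in monoclonal Treg than non-Treg cells by -1.08 ± 0.19 (adjusted p = 0.00105) and higher in monoclonal than polyclonal non-Treg cells by 2.04 ± 0.19 (adjusted p = 2.16e-06). Between the mice 1 of the 15 was higher and 4 were lower in monoclonal Treg cells (median -0.01), and 7 were higher and 1 was lower in monoclonal non-Treg cells (median 0.37). Summed dendritic cell markers were 1905 to 2132 CPM in monoclonal and 67.7 to 72.9 CPM in polyclonal non-Treg libraries. The part of such cells in the values of Relb and of this list was not tested.

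Of 14 genes for death domain adaptors and caspases, 3 were higher and none was lower in each Treg effect (median 0.29 in monoclonal and 0.45 in polyclonal mice). Ripk3 encodes a kinase of necroptosis. It was at 149 and 119 CPM in Treg and 68.9 and 53.3 CPM in non-Treg cells of monoclonal mice, and at 49.9 and 63.9 CPM and 69.2 and 80.2 CPM in those of polyclonal mice. Monoclonal Treg cells were above every other library, by 1.22 ± 0.19 over polyclonal Treg cells (adjusted p = 0.000258). Between the mice 3 of the 14 were higher and 1 was lower in monoclonal Treg cells (median -0.04), and 1 was higher and none was lower in monoclonal non-Treg cells (median 0.05).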

How the data were processed

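Per the labels' protocols, poly-dT selected RNA of spleen CD4+ T cells was sequenced single-end at 50 bp with strand kept. The authors deposited 1 table of CPM (reads per 1000000 reads assigned to its genes) on mm9, with 1 transcript, its position and its length per gene. The submitters' processing notes list, without roles, STAR 2.4.1a, HOMER 4.7, edgeR, Trimmomatic 0.33, FastQC 0.10.1 and CASAVA 1.8.2. The sources used here do not give whether counting used strand or how reads matching several genes were treated. 100% of values above 0 were whole multiples of 1 read within 0.01 read, which gave the depth of each library. No per-sample column was left unused.

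Values as log2(CPM + 1) were tested with limma 3.58.1 (R 4.3.3, trend and robust spread) for the 12881 genes that reached 1 CPM in 2 or more libraries. A mean was fitted for each of 4 groups over 8 libraries (4 residual degrees of freedom), with 5 comparisons, 2-sided tests and Benjamini-Hochberg adjustment over all genes tested (threshold 0.05). The pseudocount of 1 CPM understates changes of low genes. edgeR 4.0.16 and DESeq2 1.42.0 on the recovered reads, other scalings, filters and pseudocounts, a replicate block and leaving out each library were alternatives. The scripts were tested on simulated data.

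Every one of the 9 receptors is named in every comparison. From each pathway list at most 4 genes past the threshold were eligible, by size of change, and for likeness the 3 genes with the highest correlation, among genes whose mean log2 level reached 3, unnamed loci left out. The 9 receptors and all lists were chosen with earlier results of these data known. Promoter sequences are from RefSeq (GRCm38.p6), whose coordinates differ from those of mm9, and exons within them were taken from GENCODE.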

Additional observations from a re-analysis of the deposited data

Results flagged for a closer look

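The difference of the Treg effects (monoclonal minus polyclonal, limma on log2(CPM + 1)) passed the threshold for 3 of the 9 receptors, Tnfrsf1a (-0.88, adjusted p = 0.0452), Tnfrsf1b (-0.87, 0.0104) and Tnfrsf25 (0.82, 0.0160), described above. The difference also passed for 13 genes of the pathway lists, beside 9.2% of all genes tested. At most the 4 genes with the largest change are given per list. Among ligands and partners these were Cd160 (-2.41, adjusted p = 0.0221), Tnfsf14, which encodes LIGHT (1.75, 0.0263), Lta (-1.70, 0.00686) and Btla (-0.87, 0.0340). Among other receptors they were Cd40 (-2.88, 0.00820), Relt (-1.08, 0.00779) and Tnfrsf26 (0.90, 0.0235). In the TRAF and noncanonical NF-kB list the 4 largest of 5 were Relb (-1.71, 0.00170), Tnfaip3 (1.32, 0.00176), Traf1 (-1.19, 0.000479) and Birc3 (-1.08, 0.00217), and in the death domain list Ripk3 (1.52, 0.00270).

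Under the 17 alternatives, Lta, Relb, Traf1 and Birc3 kept the call in all. Tnfsf14 and Btla lost it without any 1 library except monoclonal Treg replicate A and polyclonal Treg replicate B (adjusted p 0.0534 to 0.138). Cd160 lost it without either monoclonal non-Treg library or without polyclonal Treg or non-Treg replicate A (0.0619 to 0.147). Cd40 lost it without monoclonal non-Treg replicate B (0.0710), Relt without that library (0.0637) or polyclonal non-Treg replicate B (0.0702), and Tnfrsf26 without monoclonal non-Treg replicate B (0.164) or either polyclonal non-Treg library (0.0666 and 0.153). With CD3 scaling the difference was 0.73 for Tnfaip3 (adjusted p = 0.172), 0.94 for Ripk3 (0.0565), 1.19 for Tnfsf14 (0.0977) and 0.31 for Tnfrsf26 (0.529), and without a filter Cd160, Tnfsf14, Btla and Tnfrsf26 did not pass (0.0510 to 0.103). Monoclonal non-Treg libraries, which enter every difference, also carried the highest dendritic cell markers (1905 to 2132 CPM summed), and their part in these values was not tested.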

How the results depend on the processing

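With 2 libraries per group, single libraries decided many calls. Of 32 calls on the 9 receptors over the 5 comparisons, 17 held under every alternative and 15 were lost under at least 1, of which 1 turned sign. Of 13 results that did not pass, 5 passed under at least 1. The numbers of genes past the threshold were 3143 for the monoclonal Treg effect, 1018 for the polyclonal one, 1185 for their difference, 3116 for monoclonal against polyclonal Treg cells and 2505 for non-Treg cells. Leaving out 1 library gave 1300 to 3780, 435 to 1236, 395 to 1663, 2416 to 3577 and 1370 to 3227, in that order. The counts fell without monoclonal non-Treg replicate A to 1892 for the monoclonal effect, 621 for the difference and 1625 for non-Treg cells, without polyclonal non-Treg replicate A to 472, 550 and 1422, and without its replicate B to 435, 495 and 1405 for the polyclonal effect, the difference and non-Treg cells. Monoclonal non-Treg replicate B gave the lowest monoclonal, difference and non-Treg counts.

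Without a filter the difference called 756 genes. A fit of only the libraries compared gave 1841 genes in Treg and 4437 in non-Treg cells between the mice, the latter 2184 higher and 2253 lower in place of 1558 and 947. Scaling to the CD3 genes gave 4835 in the monoclonal effect (411 higher and 4424 lower, against 1396 and 1747), 560 in the polyclonal effect (350 and 210), 1713 in the difference (84 and 1629, against 469 and 716), 1944 between Treg cells (995 and 949) and 2783 between non-Treg cells (2652 and 131). The median of all genes then stood at -0.54, 0.02, -0.58, -0.10 and 0.40, from -0.02, 0.00, -0.03, -0.03 and -0.07. The cause was not tested.

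Signs turned as follows. Scaled to the CD3 genes, the monoclonal effect was -0.19 for Cd27 and -0.29 for Fas, and the difference was -0.049 for Tnfrsf18, -0.46 for Tnfrsf4 and -0.27 for Sdf4. The Tnfrsf4 difference was also -0.00328 in edgeR, and with 1 library left out it ran from -0.27 (polyclonal Treg replicate A) to 0.51 (its replicate B), with -0.01 for monoclonal non-Treg replicate B. The monoclonal Fas effect ran from -0.11 to 0.61, set by leaving out monoclonal non-Treg replicates B and A. The Cd27 difference ran from -0.15 to 0.054, set by leaving out polyclonal Treg replicates A and B, with 0.0097 for monoclonal non-Treg replicate A and 0.0062 for polyclonal non-Treg replicate B. Tnfrsf25 between non-Treg cells ran from -0.094 to 0.24, set by leaving out monoclonal non-Treg replicates A and B.

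With the replicate letter as a block, 3032, 945, 1094, 2969 and 2393 genes passed. Deviations of same-lettered libraries correlated at -0.0930 to 0.0969 between groups over all genes tested. Such a correlation cannot exclude a part shared by fewer genes. The summed neutrophil markers were higher in replicate A than in replicate B in each group. Under this replicate block the calls on Tnfrsf25 (adjusted p = 0.050) and Cd27 (0.0626) in polyclonal mice, on the Tnfrsf1a difference (0.0551), and on Tnfrsf18 (0.0603) and Fas (0.0619) between non-Treg cells did not pass.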
